A study of Mus musculus with 384 samples.

Results

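The receptors described here bind serotonin, noradrenaline and adrenaline, histamine, or acetylcholine of the muscarinic type. They were taken from the deposited count table by symbol alone: every row that starts with Htr1 to Htr7, Adra1, or Adra2, or is a β-adrenergic receptor gene, Hrh1 to Hrh4, or Chrm1 to Chrm5. The rule found 32 genes among 47082 rows, of which 14 are serotonin, 9 adrenergic, 4 histamine, and 5 muscarinic receptor genes.

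Nearly all of these receptors span the membrane and act through G proteins. Receptors coupled to Gq activate phospholipase C and release calcium from internal stores, those coupled to Gs activate adenylyl cyclase, and those coupled to Gi/o inhibit adenylyl cyclase and open potassium channels. The *Htr3* genes are the exception and encode subunits of a cation channel. Midbrain dopamine (DA) neurons receive serotonin fibers from the raphe, noradrenaline from the locus coeruleus and other brainstem groups, histamine from the hypothalamus, and acetylcholine from the pontine tegmentum, and these transmitters alter their firing through such receptors.

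Single cells came from 8 DAT-IRES-Cre;Ai9 mice on the C57BL6/J strain, labelled 24–36 d old, of which 3 are labelled female and 5 male; the description of the series states other numbers of each sex. In all of them Cre is made from the dopamine transporter locus and switches on the tdTomato reporter for good, so a cell that used the locus earlier in life stays red. Cells without propidium iodide and with tdTomato were sorted from midbrain tissue that included the hypothalamus, and each mouse was captured on its own Fluidigm C1 chip, so mouse and capture run are inseparable. Mice 2 and 3 share a labelled sort date, as do mice 7 and 8. The labelled chip size was large for mice 3, 4, and 5 and medium for the other mice. No mouse received a treatment named in the labels.

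Of 384 cells, the 209 with at least 500000 reads on genes were used, 12–45 per mouse, with 500672–1545100 reads each. Summed over cells, a mouse held 8500224 to 32835678 reads. The defining genes of DA neurons were present in most of these cells: at least 10 reads of *Ddc* were counted in 206, of *Slc6a3* and of *Slc18a2* in 205 each, and of *Th*, the rate-limiting enzyme of dopamine synthesis, in 198. *Th* stayed under 1000 counts per 1000000 reads on genes (CPM) in 28 cells, called *Th*-poor here. Of the markers of other cells, *Slc6a4*, *Fev*, *Dbh*, *Mog*, *Cldn5*, and *Rgs5* reached 10 reads in 0 cells, but *Tph2*, a serotonin-synthesizing enzyme, did so in 11, *Chat*, which makes acetylcholine, in 9, *P2ry12*, a microglial receptor, in 6, *Mbp*, a myelin gene, in 56, and *Gad1*, a GABA-synthesizing enzyme, in 15. Summed markers of oligodendrocytes passed 1000 CPM in 3 cells and those of astrocytes in 3.

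A cell was counted as positive for a gene from 10 reads. Of the 32 receptor genes, 13 were positive in at least 10 cells, which is 40.6% of them, against 29.3% of the 41361 genes with a count in every cell. Another 13 were positive in 1–8 cells, and 6 in none. With 1 read in place of 10, 24 of the 32 genes reached 10 cells.

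**Figure D1:**
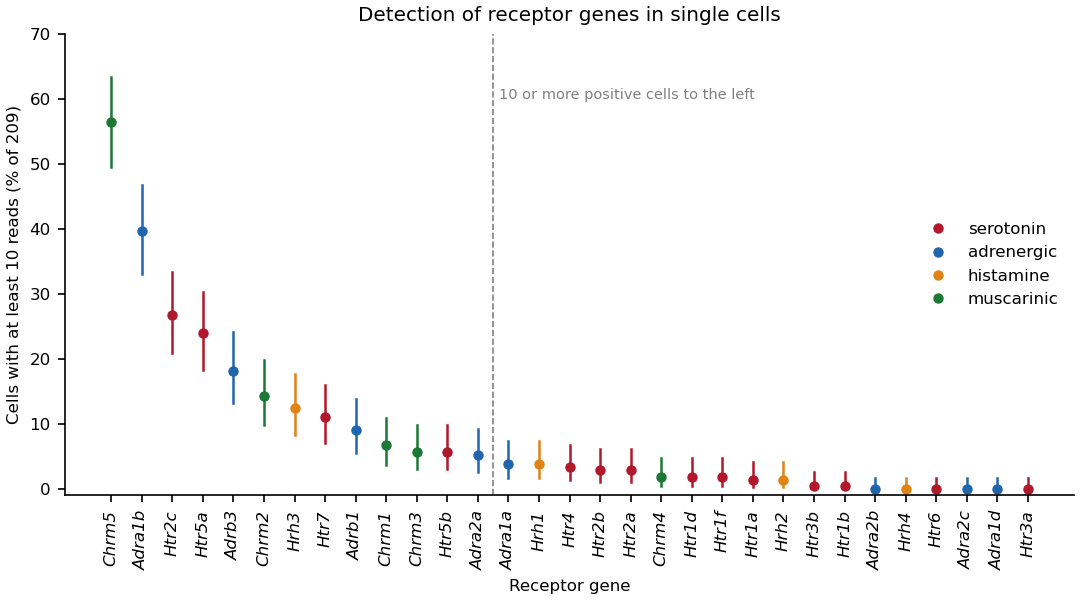
Share of the 209 cells with at least 10 reads of each receptor gene but 1 that is not reported (y axis, percent) in order of that share, with exact 95% binomial intervals as vertical lines and colors for the receptor family. *Chrm5* (56.5%) and *Adra1b* (39.7%) lie highest, and genes to the right of the dashed line had fewer than 10 positive cells.

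Among serotonin receptors, *Htr2c*, a Gq-coupled receptor encoded on chromosome X (GRCm38, chrX:146962464-147197277, plus strand), was the most abundant. It was positive in 56 cells (26.8%, exact 95% interval 20.9–33.3%), and in those cells its median was 136 CPM. Summed per mouse, its level was 70.8, 28.9, 5.63, 81.2, 103, 127, 25.1, and 80.8 CPM in mice 1 to 8, so that mouse 3 held the least and mouse 6 the most. *Htr5a*, a Gi/o-coupled receptor, was positive in 50 cells (23.9%) at a lower level, with a median of 31.3 CPM in positive cells and 11.9 ± 9.88 CPM over mice (SD, n = 8). *Htr7*, coupled to Gs, was positive in 23 cells and *Htr5b*, the sister gene of *Htr5a*, in 12. With every cell thinned to 500000 reads, *Htr5a* was positive in 33 cells and *Htr2c* in 54. Few cells held the other serotonin receptors. *Htr4* was positive in 7 cells, *Htr2a* and *Htr2b* in 6 each, *Htr1d* and *Htr1f* in 4 each, *Htr1a* in 3, and *Htr1b* and *Htr3b* in 1 each. *Htr6* had 6 reads in all, and *Htr3a* had 0 reads. A count of 0 positive cells of 209 allows a share of up to 1.44% (3 counts of 209; the exact 95% interval reaches 1.75%), by counting error alone.

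*Htr1a*, the Gi/o-coupled receptor that acts as autoreceptor on serotonin neurons, was confined to mice 7 and 8 at the level of 10 reads. The positive cells held 512, 87, and 19 reads. The first and second of them also held *Slc17a6*, the vesicular glutamate transporter 2, with 953 and 944 reads, and the second held 121 reads of *Mbp*. The third had 541 CPM of *Th*, 239 reads of *Gad1*, and 4872 reads of *Mbp*, and the part of RNA from other cells in its 19 reads was not tested. Over mice the level of *Htr1a* ran from 0 to 26.9 CPM.

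Adrenergic receptors were led by *Adra1b*, a Gq-coupled α1 receptor on the minus strand of chromosome 11 (chr11:43774605-43901250). It was positive in 83 cells (39.7%, 33.0–46.7%) and present in every mouse, at 6.58, 24.4, 12.0, 7.41, 20.6, 18.5, 26.6, and 40.2 CPM in mice 1 to 8. Mice 1 and 4, both labelled female, held the least, and mouse 8 the most. The Gs-coupled *Adrb3*, known best from fat tissue, was positive in 38 cells of 7 mice and the more widely used *Adrb1* in 19 cells of 6 mice, or 10 after thinning to 500000 reads. *Adrb3* averaged 9.84 ± 6.16 CPM and *Adrb1* 3.16 ± 2.01 CPM (SD, n = 8). The RefSeq model of *Adrb3* overlaps *Gm45470*. *Adra2a*, the Gi/o-coupled α2 receptor, passed in 11 cells, and its level was high in mouse 6 (21.6 CPM) and between 0 and 6.98 CPM in the other mice. *Adra1a* was positive in 8 cells. *Adra2b* had at most 3 reads in a cell although 32 cells held at least 1 read, *Adra2c* had 2 reads in all, and *Adra1d* had 0.

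Histamine receptors were sparse. *Hrh3*, the Gi/o-coupled receptor found on axon terminals and cell bodies of many neurons, was positive in 26 cells (12.4%) and held 31.5 CPM in mouse 1 but 1.07–9.68 CPM in mice 2 to 8. *Hrh1*, the Gq-coupled target of sedating antihistamines, was positive in 8 cells from 5 mice, and 7 of these 8 cells held more than 50 reads, up to 363. It was thus rare, with a median of 175 CPM in positive cells. That was the highest median among the 26 receptors with a positive cell, in CPM that were not divided by gene length. Of the 8 cells, 5 were *Th*-poor, 7 were positive for *Slc17a6*, and the remaining cell was positive for *Gad1*. *Mbp* was positive in 6 of the 8, with 25–274 reads, against 56 of all 209 cells, and the part of RNA from other cells was not tested. By mouse, *Hrh1* stood at 0, 2.81, 0, 19.3, 3.85, 44.9, 3.75, and 0 CPM, so that mice 4 and 6 carried most of it. *Hrh2* was positive in 3 cells, and *Hrh4* had at most 2 reads in a cell.

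Muscarinic receptors included the most widely detected gene of all 32, *Chrm5* (chr2:112478733-112536361, minus strand), the Gq-coupled M5 receptor known for its place on DA neurons. It was positive in 118 cells (56.5%, 49.4–63.3%) and in all 8 mice. The level was 85.5, 79.2, 73.5, 25.6, 25.3, 52.6, 84.8, and 121 CPM in mice 1 to 8, lowest in mice 4 and 5. Its RefSeq model overlaps *Aven*, and reads on more than 1 gene had been left out before deposit. *Chrm2*, coupled to Gi/o, was positive in 30 cells and varied from 0.0609 CPM in mouse 3 to 43.8 CPM in mouse 7. *Chrm1* and *Chrm3*, both Gq-coupled, were positive in 14 and 12 cells. *Chrm4*, which overlaps *Mdk* in RefSeq, was positive in 4 cells and had at least 1 read in 42.

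Levels of different genes were compared per kilobase of exon in GENCODE M21, a scale of CPM per kb. *Chrm5* was highest at 42.8 ± 20.4 (SD, n = 8 mice), though its model in that annotation covers little beyond the coding sequence, with 1599 bases. Reads had been counted on RefSeq genes, so a length that is too short raises its value. Without division by length, *Chrm5* stood at 68.5 ± 32.6 CPM and *Htr2c* at 65.2 ± 41.7 CPM. Per kilobase, *Htr2c* followed at 6.99 ± 4.47, *Adra1b* at 5.78 ± 3.30, *Adrb3* at 2.91 ± 1.82, *Htr5b* at 2.86 ± 3.25, *Hrh3* at 2.78 ± 3.06, *Chrm2* at 2.43 ± 2.48, and *Htr5a* at 2.21 ± 1.84. From *Htr2c* down, each gene stood above the next by less than its own SD, and within mice *Htr2c* exceeded *Adra1b* in 4 of 8 and *Adra1b* exceeded *Adrb3* in 7 of 8. The further neighbors kept the order of their means in 2 to 6 of 8 mice.

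A cell held a median of 2 of the 32 receptors, with a range of 0–8. No receptor was positive in 12 cells, 1 in 40, 2 in 54, 3 in 50, and 4 or more in the rest, with 8 in each of 3 cells. Mean numbers by mouse ran from 1.98 in mouse 3 to 3.67 in mouse 8. By coupling, at least 1 of the 10 Gq-coupled receptors was positive in 172 cells (82.3%, 76.4–87.2%), at least 1 of the 13 Gi/o-coupled in 108 (51.7%), and at least 1 of the 7 Gs-coupled in 79 (37.8%). The Gq share rests largely on *Chrm5*, *Adra1b*, and *Htr2c*. By family, muscarinic receptors were positive in 143 cells, adrenergic in 121, serotonin in 116, and histamine in 34.

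Receptors shared cells to different extents. *Chrm5* and *Adra1b* were both positive in 55 cells from all 8 mice, which is 46.6% of *Chrm5*+ and 66.3% of *Adra1b*+ cells. *Chrm2* and *Adra1b* shared 19 cells, 63.3% of *Chrm2*+ cells and 22.9% of *Adra1b*+ cells. The less frequent *Adra2a*, *Htr5b*, and *Chrm3* often lay in *Htr2c*+ cells: 9 of 11 *Adra2a*+, 9 of 12 *Htr5b*+, and 8 of 12 *Chrm3*+ cells, each from 5 mice. Conversely these made up 16.1%, 16.1%, and 14.3% of *Htr2c*+ cells. *Htr5a* and *Htr2c* shared 11, which is 22.0% of *Htr5a*+ and 19.6% of *Htr2c*+ cells. These overlaps are counts over cells of shared libraries and carry no test.

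Transcripts of some of the G proteins and effectors these receptors act through were detected in nearly every cell, and others in few. The Gq subunit *Gnaq* was positive in 206 cells, the Gs subunit *Gnas* in 208, and the Go subunit *Gnao1* in 204. *Plcb4* was the leading phospholipase C β gene (190 cells, 309 ± 85.6 CPM, SD, n = 8), with *Plcb1* in 158 cells and *Plcb2* and *Plcb3* in 1 and 2. Adenylyl cyclases were spread over several genes, each in at most 83 cells, with *Adcy5* at 39.6 ± 26.6 CPM and *Adcy1* at 29.9 ± 24.3 CPM. Of enzymes that break the transmitters down, *Ache*, acetylcholinesterase, was positive in 199 cells, *Maoa* in 179, and *Hnmt*, histamine N-methyltransferase, in 150. *Arrb2* was listed at 0 reads.

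To ask how receptors differ between kinds of DA neurons, *Th*-rich cells (181) were split by 3 genes that are not receptors: *Slc17a6*, which marks glutamate co-release, *Aldh1a7*, found in nigral-type neurons, and *Neurod6*, found in a set of ventral tegmental neurons. Counts were summed per mouse and class, so that sums of a mouse, not cells, were the replicates. The main test was edgeR's quasi-likelihood test over all genes without a term for mouse, with p-values adjusted after Benjamini and Hochberg. A mouse entered with at least 3 cells in each class.

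*Htr2c* was higher in *Slc17a6*+ than in *Slc17a6*- DA neurons in all 8 mice. The level in *Slc17a6*+ cells was 92.6, 20.6, 15.1, 22.7, 108, 117, 30.2, and 105 CPM in mice 1 to 8, and in *Slc17a6*- cells 0, 6.91, 2.12, 1.41, 4.63, 1.00, 4.24, and 0.272 CPM. The lowest *Slc17a6*+ value exceeded the highest *Slc17a6*- value, so the classes did not overlap. The log2 fold change was 4.50 ± 0.72 (SE; adjusted p = 0.0298, edgeR), and 34 of 93 *Slc17a6*+ cells were positive against 4 of 88 *Slc17a6*- cells. In this comparison 2 of 11809 genes (0.0169%) passed the threshold, *Htr2c* and the gate gene *Slc17a6* itself, and *Htr2c* was the only one of 10 receptors tested to pass. It was also the only one of the 10 whose CPM per mouse did not overlap, against 0.0508% of all genes tested. The call was not kept with the mouse as a block (log2 fold change 4.57, adjusted p = 0.263), and leaving out any 1 of mice 3 to 8 moved the adjusted p to between 0.0695 and 0.180, at fold changes of 4.21–4.73 on the log2 scale; without mouse 1 or mouse 2 it stayed at 0.0327 and 0.0198. Thinning every cell to 500000 reads gave 3.75 (adjusted p = 0.146), and admitting cells from 100000 reads gave 3.32 (adjusted p = 0.356); over 18 alternatives the adjusted p ran from 2.75e-09 to 0.356. Summed oligodendrocyte markers had a median over mice of 39.1 CPM in *Slc17a6*+ and 6.00 CPM in *Slc17a6*- cells (ranges 13.9–126 and 0–106), with *Mog* at 0. Without cells above 1000 CPM of these markers, the log2 fold change of *Htr2c* was 4.51 (adjusted p = 0.0281).

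The *Slc17a6* classes also differed in the medians of summed markers of region, but the ranges over mice overlapped. Summed nigral-type markers had a median over mice of 52.2 CPM in *Slc17a6*+ and 293 CPM in *Slc17a6*- cells, and ventral tegmental-type markers 1322 and 663 CPM. Of the single genes, 0 of 2 nigral-type and 0 of 4 ventral tegmental-type markers passed in edgeR. The ventral tegmental-type sum was mostly *Calb1*. Over all cells *Calb1* averaged 712.4 CPM over mice, against 26.4 to 84.5 CPM for *Otx2*, *Neurod6*, and *Grp*. Of *Slc17a6*+ cells, *Htr2c* was positive in 3 of 25 that were *Aldh1a7*+ and 31 of 68 that were not. Of *Slc17a6*- cells it was positive in 0 of 49 and 4 of 39. The part of these markers in the difference was not tested.

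**Figure D2:**
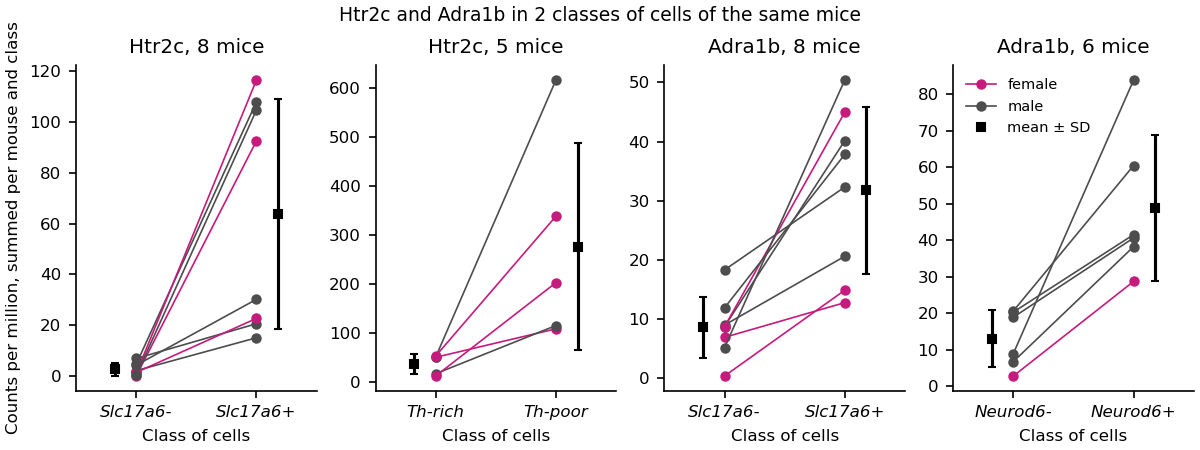
Level of *Htr2c* and *Adra1b* in CPM (y axis, linear, its own range in each panel), summed per mouse and class of cells, with a line for each mouse, pink for female and gray for male, and squares with bars for the mean and SD over mice. *Htr2c* lay higher in *Slc17a6*+ cells in 8 of 8 mice and in *Th*-poor cells in 5 of 5, and *Adra1b* higher in *Slc17a6*+ cells in 8 of 8 and in *Neurod6*+ cells in 6 of 6.

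*Adra1b* was higher in *Slc17a6*+ cells of all 8 mice as well but did not pass the threshold in edgeR. It averaged 31.7 ± 14.1 CPM in *Slc17a6*+ and 8.62 ± 5.18 CPM in *Slc17a6*- cells (SD, n = 8), and the log2 fold change was 1.80 ± 0.52 (edgeR, adjusted p = 0.689), and 61 of 93 against 21 of 88 cells were positive. DESeq2, run here and in the other comparisons without edgeR's filter on low counts, called *Htr2c*, *Adra1b* (adjusted p = 0.0114), and *Htr4*, which is outside the 10, 3 of 24 receptors against 0.547% of all genes; the adjusted p of *Adra1b* reached 1.00 in other alternatives. The ranges overlapped, since mouse 2 held 18.3 CPM in *Slc17a6*- cells and mouse 1 held 12.8 CPM in *Slc17a6*+ cells. *Chrm5* averaged 99.4 ± 53.6 against 55.7 ± 19.0 CPM and was higher in 7 of 8 mice, with mouse 5 the other way (17.1 and 34.3 CPM). *Htr7* and *Chrm1* had log2 fold changes of 2.09 ± 0.99 and 2.05 ± 0.88, and *Chrm5* 0.78 ± 0.36. The value of *Chrm1* leaned on single mice, at 0.98 without mouse 7 and 3.06 without mouse 1. At an unadjusted p under 0.05 stood 5 of the 10 receptors tested (*Htr2c*, *Adra1b*, *Chrm1*, *Chrm5*, and *Htr7*), against 5.06% of all genes. The median log2 fold change over the 10 receptors, *Htr2c* and *Adra1b* among them, was 1.08, and over all genes tested -0.02. A gene can pass the filter on low counts through 1 class alone, and these medians carry no test. *Htr5a* was positive in 21 *Slc17a6*+ and 28 *Slc17a6*- cells, with a log2 fold change of -0.20 (95% interval -1.88 to 1.48).

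The number of receptors in a cell, *Htr2c* and *Adra1b* included, followed the same split. *Slc17a6*+ cells held 3.11 ± 0.78 receptors and *Slc17a6*- cells 1.93 ± 0.35 (mean ± SD of 8 mouse means), higher in 8 of 8 mice. *Neurod6*+ cells likewise held 3.54 ± 0.62 against 2.46 ± 0.70 in *Neurod6*- cells, higher in 6 of 6 mice. The mean over cells was 3.40 in *Slc17a6*- *Neurod6*+ and 2.91 in *Slc17a6*+ *Neurod6*- cells. *Slc17a6*+ cells were also deeper, with a median of 803447 against 763539 reads, and the part of depth was not tested. Over all genes the median number at 10 reads was lower in *Slc17a6*+ cells, 5592 against 6018, while the mean number per mouse was higher in *Slc17a6*+ cells in 5 of 8 mice. Gq-coupled receptors were positive in 88 of 93 *Slc17a6*+ cells and 63 of 88 *Slc17a6*- cells, whereas Gi/o-coupled receptors were positive in 45 and 42.

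**Figure D3:**
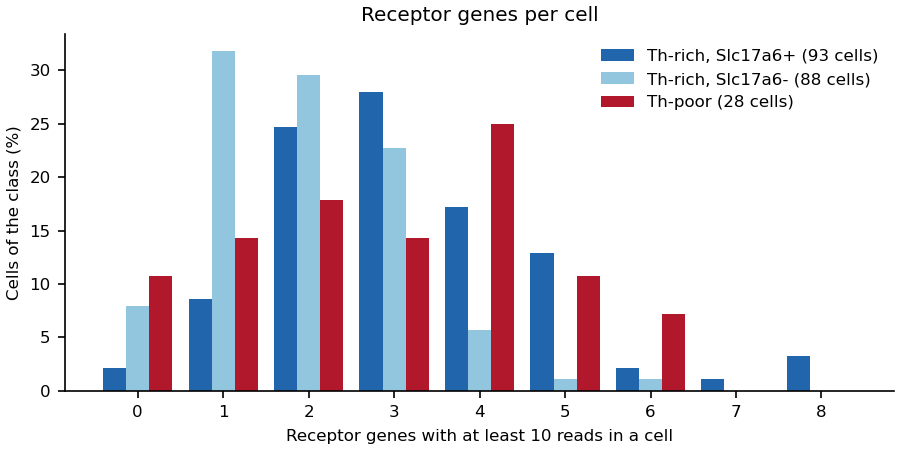
Number of receptor genes with at least 10 reads in a cell (x axis) against the percent of cells of a class (y axis), for *Th*-rich *Slc17a6*+ (93), *Th*-rich *Slc17a6*- (88), and *Th*-poor (28) cells. The median was 3 in *Slc17a6*+, 2 in *Slc17a6*-, and 3 in *Th*-poor cells.

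*Th*-poor and *Th*-rich cells were compared in 5 mice, 1, 2, 4, 5, and 6. *Htr2c* stood at 108, 115, 202, 617, and 338 CPM in the *Th*-poor cells of these mice and at 49.8, 16.1, 11.5, 50.1, and 52.3 CPM in their *Th*-rich cells. The classes did not overlap, as was the case for 3.72% of all genes tested. The log2 fold change of 2.98 ± 0.59 missed the threshold (adjusted p = 0.0526, edgeR). It passed with a gate at 2000 CPM of *Th* (adjusted p = 0.00482) and in 3 of 14 alternatives in all, over which the adjusted p ran from 0.000209 to 0.200. Over all 8 mice, 18 of 28 *Th*-poor cells were *Htr2c*+, and these were 18 of the 20 that were *Slc17a6*+ and 0 of the 8 that were not. Of the 11 receptors tested, 0 passed in edgeR, against 0.424% of all genes, and 5 stood at an unadjusted p under 0.05, against 9.38% of all genes; DESeq2 called 4 of 19 receptors (*Htr2c*, *Adra1b*, *Adrb1*, and *Adrb3*, the latter pair outside the 11), against 4.74% of all genes.

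*Adra1b*, *Htr5a*, and *Chrm5*, frequent in *Th*-rich cells, were positive in few *Th*-poor cells. *Th*-poor cells were also shallower, with a median of 705186 against 784027 reads, and held fewer genes at 10 reads, 4903 against 5890, lower in 4 of 5 mice. The part of this in the values was not tested. *Adra1b* was positive in 1 of 28 *Th*-poor and 82 of 181 *Th*-rich cells, and its CPM in the 5 mice was 0.435, 1.59, 7.74, 2.01, and 0.529 against 10.1, 27.8, 7.23, 22.6, and 24.8. Mouse 4 alone had the higher value in *Th*-poor cells, where 1 of 4 cells was positive. The log2 fold change was -2.89 ± 0.97 (adjusted p = 0.333, edgeR), -4.16 without mouse 4, -1.90 with cells from 100000 reads, and -1.48 with the gate at 2000 CPM of *Th*. *Htr5a* was likewise positive in 1 of 28 and 49 of 181 cells (log2 fold change -3.23 ± 1.24), but its direction turned with the gate at 2000 CPM of *Th* (0.46). *Chrm5* was positive in 5 of 28 and 113 of 181 cells and lower in 5 of 5 mice, 9.76 ± 15.8 against 71.4 ± 41.8 CPM, with a log2 fold change of -2.77 ± 1.34 (edgeR, unadjusted p = 0.0590, adjusted p = 0.563). *Chrm1* lay the other way, higher in *Th*-poor cells of 5 of 5 mice (12.9 ± 13.3 against 2.06 ± 1.97 CPM, log2 fold change 2.68 ± 1.08, edgeR, adjusted p = 0.462), and its log2 fold change was 1.12 with cells from 100000 reads. *Hrh1* held 46.5 ± 74.0 CPM in *Th*-poor cells, of which mouse 6 contributed 173 CPM from 3 of 4 cells and mouse 4 52.9 CPM from 1 of 4. Its log2 fold change was 5.14 ± 2.05 (adjusted p = 0.460, edgeR), and 3.14 without mouse 6. In the same comparison *Plcb4* fell (-2.04 ± 0.34 on the log2 scale, edgeR, adjusted p = 0.0324), the only one of 25 tested G protein, effector, and receptor kinase or arrestin genes to pass. In each of the other comparisons 0 of 26 such genes passed. Of the markers of DA neurons, *Th*, which set the classes, *Slc6a3*, and *Slc18a2* fell as well, and so did the nigral-type marker *Aldh1a7* (edgeR, adjusted p = 0.0315), positive in 0 of 28 *Th*-poor and 74 of 181 *Th*-rich cells. *Th*-poor cells differed in other markers too: all 3 cells with over 1000 CPM of summed astrocyte markers were *Th*-poor cells of mouse 1, each with 0 reads of *Htr2c* and *Hrh1*. Without mouse 1 the log2 fold change of *Htr2c* was 3.34 (adjusted p = 0.0515, edgeR). The 3 cells with as much of oligodendrocyte markers came from mice 3 and 7, which did not enter this comparison. Over the 5 mice, summed astrocyte markers ran from 0 to 920 CPM in *Th*-poor cells, and oligodendrocyte markers from 8.40 to 124 CPM.

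*Aldh1a7*+ and *Aldh1a7*- cells were compared in 7 mice, 2 to 8. *Htr2c* was positive in 3 of 74 *Aldh1a7*+ and 35 of 107 *Aldh1a7*- cells. In *Aldh1a7*+ cells its level was 0.203, 6.35, 1.54, 0.718, 0.262, 34.3, and 0.699 CPM in mice 2 to 8, and in *Aldh1a7*- cells 26.3, 4.81, 20.7, 106, 80.8, 17.4, and 121 CPM. It was lower in *Aldh1a7*+ cells of 5 mice and higher in mice 3 and 7, where the 34.3 CPM of mouse 7 came from 1 positive cell of 5. The log2 fold change of -2.99 ± 1.04 did not pass (adjusted p = 0.450, edgeR), and without mouse 7 it was -4.93 (adjusted p = 0.0825). *Hrh3* averaged 7.05 ± 6.67 CPM in *Aldh1a7*+ and 1.44 ± 1.54 CPM in *Aldh1a7*- cells (SD, n = 7), higher in 4 of 7 mice, and the log2 fold change was 2.41 ± 1.09 (edgeR, adjusted p = 0.624). Of 9 receptors tested, 0 passed, against 0.112% of all genes, 0 were without overlap between the classes, against 0.375%, and 2 stood at an unadjusted p under 0.05, against 7.54%; DESeq2 called *Htr4* and *Chrm1*, both outside the 9, which is 2 of 24 receptors against 1.71% of all genes. The intervals for the most frequent receptors were narrow by comparison: for *Chrm5* the log2 fold change was -0.27 (95% interval -1.01 to 0.47) and for *Adra1b* -0.45 (-1.71 to 0.81). *Adra1b* averaged 19.1 ± 18.8 CPM in *Aldh1a7*+ and 28.1 ± 10.9 CPM in *Aldh1a7*- cells, and *Chrm5* 64.4 ± 34.3 and 82.3 ± 35.6 CPM. Each was lower in *Aldh1a7*+ cells of 5 of 7 mice. *Chrm1* was positive in 0 of 74 *Aldh1a7*+ and 8 of 107 *Aldh1a7*- cells and did not pass the filter of the edgeR test.

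**Figure D4:**
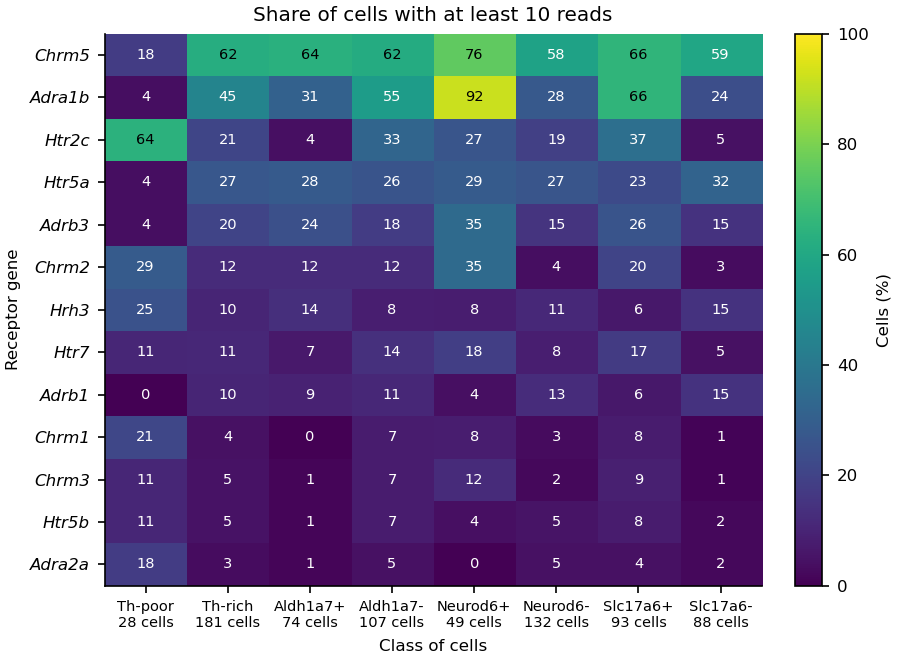
Percent of cells with at least 10 reads (color and printed value) for the 13 receptors positive in at least 10 cells, in 8 classes of cells. *Adra1b* is positive in 45 of 49 *Neurod6*+ cells and 1 of 28 *Th*-poor cells, and *Htr2c* in 18 of 28 *Th*-poor and 3 of 74 *Aldh1a7*+ cells.

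*Neurod6*+ cells carried *Adra1b* almost throughout. It was positive in 45 of 49 *Neurod6*+ and 37 of 132 *Neurod6*- cells. In the 6 mice with both classes, 1, 2, 3, 5, 7, and 8, the level was 28.7, 41.5, 38.2, 83.9, 40.6, and 60.5 CPM in *Neurod6*+ cells and 2.73, 20.3, 6.69, 8.91, 18.9, and 20.6 CPM in *Neurod6*- cells. The classes did not overlap, which was so for 0.718% of all genes tested and for 1 of the 13 receptors tested. The log2 fold change was 1.95 ± 0.50 (adjusted p = 0.326, edgeR; 0.00514 in DESeq2 and up to 0.786 over 16 alternatives). *Chrm2* was positive in 17 of 49 against 5 of 132 cells and averaged 34.2 ± 32.7 against 4.93 ± 7.35 CPM (SD, n = 6), higher in 5 of 6 mice, with a log2 fold change of 2.85 ± 1.39 (edgeR, unadjusted p = 0.0583, adjusted p = 0.929). *Htr5b* lay the other way, at 0.619 ± 1.09 against 12.1 ± 12.6 CPM (log2 fold change -4.12, 95% interval -7.06 to -1.17). *Chrm4* averaged 2.34 ± 2.07 CPM in *Neurod6*+ and 0.611 ± 0.583 CPM in *Neurod6*- cells (log2 fold change 1.96 ± 0.77). Of 13 receptors, 0 passed in edgeR, where the gate gene *Neurod6* alone did (0.00807% of genes), and 3 stood at an unadjusted p under 0.05, against 5.54%; DESeq2 called *Adra1b* and, outside the 13, *Htr2a*, which is 2 of 22 receptors against 1.44% of all genes. All 49 *Neurod6*+ cells were positive for at least 1 Gq-coupled receptor, against 102 of 132 *Neurod6*- cells. *Neurod6* and *Slc17a6* overlap, since 39 of the 49 *Neurod6*+ cells were *Slc17a6*+. In the 10 that were not, *Adra1b* was positive in 8, and in the 54 *Slc17a6*+ *Neurod6*- cells in 24.

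**Figure D5:**
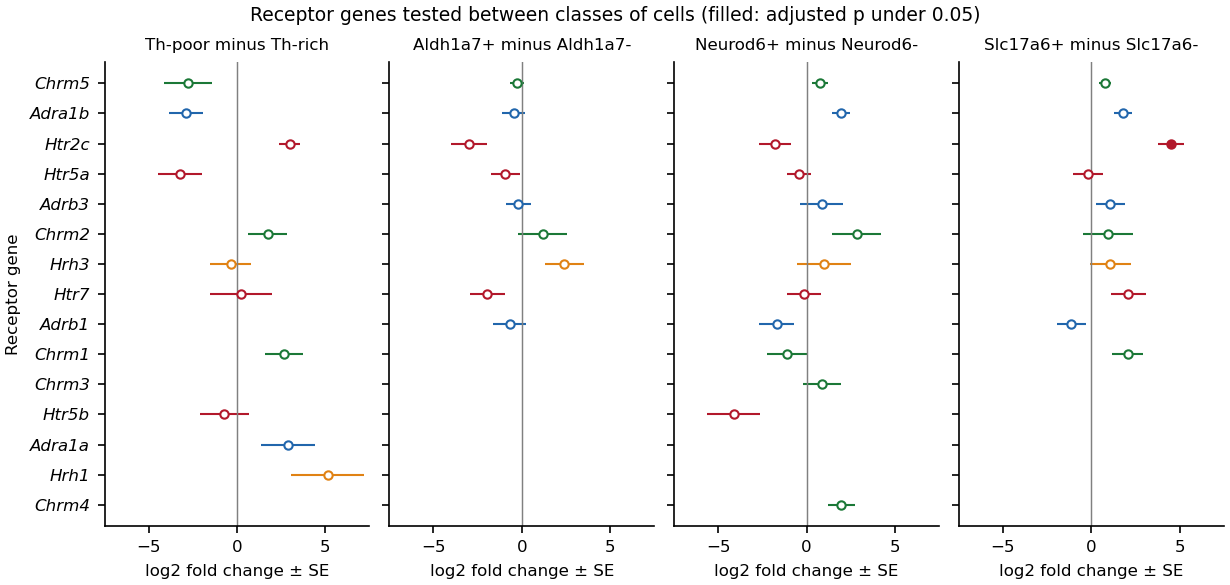
Log2 fold change ± SE (x axis) of each receptor tested in 4 comparisons between classes of cells from the same mice, with colors for the receptor family (serotonin red, adrenergic blue, histamine orange, muscarinic green) and a filled point where the adjusted p was under 0.05. The only filled point is *Htr2c* between *Slc17a6*+ and *Slc17a6*- cells, at 4.50.

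Between the 5 male and 3 female mice, 0 of 23 receptors tested passed in edgeR, against 0.0322% of all genes, and 3 stood at an unadjusted p under 0.05, against 8.12%; DESeq2 called *Htr1a*, which edgeR had not tested, as 1 of the 23 receptors it gave an adjusted p, against 2.02% of all genes. *Htr5a* was 8.33, 10.1, 29.8, 23.5, and 10.4 CPM in the males and 1.96, 1.65, and 9.21 CPM in the females, so that the female mouse 6 lay within the males. Its log2 fold change was 1.93 ± 0.76 (adjusted p = 0.565, edgeR), and 3.20 without mouse 6. *Adra1b* averaged 24.8 ± 10.3 CPM in males and 10.8 ± 6.65 CPM in females (log2 fold change 1.20 ± 0.52). *Chrm4* did not overlap between the sexes, like 5.60% of all genes tested, but stayed at or under 2.95 CPM (log2 fold change 3.06 ± 1.22, and 4.89 without mouse 1). Within C1 machine SMEAGOL (mice 1, 2, 4, 6, and 7) the log2 fold changes of *Htr5a*, *Adra1b*, and *Chrm4* were 1.89, 1.24, and 3.82. Within lane 2, which holds only part of the cells of mouse 4, they were 2.03, 1.51, and 4.90. These are subsets of the same mice, and the part of machine, lane, and chip size in the values was not tested. For *Htr2c*, the mean was 48.7 ± 41.2 CPM in males and 92.8 ± 29.6 CPM in females, with a log2 fold change of -0.95 (95% interval -2.30 to 0.39). The females were labelled 25, 33, and 36 d old and the males 24–28 d, and no labelled sort date held both sexes, so sex, age, and sort date cannot be fully told apart. The mix of cells differed as well. *Th*-poor and *Th*-rich cells numbered 7 and 11, 4 and 8, and 4 and 13 in the female mice 1, 4, and 6. They numbered 5 and 29 in male mouse 2 and 4 and 34 in male mouse 5, and the other males held fewer than 3 *Th*-poor cells each. The part of this mix in the values was not tested. *Htr2c* was positive in 19 of the 47 cells from female mice and in 37 of the 162 cells from males.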

How the data were processed

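The deposited count values are the authors' own. Trimmomatic 0.3.2, TopHat2 2.1.1 (genome GRCm38), and featureCounts 1.5.0-p3 (RefSeq genes) were used by the authors, reads on more than 1 gene were left out, and no normalization was applied; the strand setting is not given in the sources used here. Reads carry no molecular identifiers, so intervals (Clopper-Pearson, 95%) and limits cover counting error only. Of 47082 rows, 5721 that were NA in every cell were dropped. The members and lists were chosen with earlier results of these data known. The receptors are named by rule, with the gate genes and genes of lists of signaling genes and cell markers; 1 receptor and a few listed genes are not reported here, though counts over receptors and lists include them.

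Sums over cells per mouse and class (at least 3 cells and 3 mice) entered edgeR 4.0.16 (R 4.3.3, TMM, filterByExpr, quasi-likelihood F test), with Benjamini-Hochberg adjustment over all genes. SE is the log2 fold change over the square root of F, and an interval spans 1.96 SE to each side. DESeq2 1.42.0, without that filter, served as the alternative. Classes of cells are paired by mouse, but the main test held no term for mouse and took the sums of a mouse as independent. Taken over the genes tested, deviations of a mouse's paired sums from class means correlated with medians over mice of 0.053–0.121. These correlations do not show how strongly a single gene was paired. On simulated data for the *Slc17a6* comparison (11809 genes), 51% of 4-fold and 74% of 16-fold changes were recovered by edgeR, and 3 of 128 calls were false; for DESeq2 this was 67%, 92%, and 30 of 189, and its false calls in simulations of the other comparisons were 85 of 202 (sex), 49 of 159 (*Th*), 30 of 188 (*Aldh1a7*), and 50 of 193 (*Neurod6*). For the *Th* comparison (11324 genes) edgeR recovered 13% and 48%. Data for either tool were simulated only for genes past edgeR's filter, with edgeR's dispersions. The false calls of DESeq2 therefore do not describe the receptors it called outside that filter. Positions are from RefSeq for GRCm38.p6 and exon lengths from GENCODE M21.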

Additional observations from a re-analysis of the deposited data

Results flagged for a closer look

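A single mouse stood apart in 6 of 39 groups of mouse values examined, by the gap to its nearest neighbor as a share of the range at the 95% critical value. Chance would give about 1 in 20 for normally distributed values, which was not checked for these CPM. Classes of cells were examined only for receptors at an unadjusted p under 0.05 in edgeR, so the share flagged has no known rate by chance. Over the males, *Chrm1* was high in mouse 7 (14.0 CPM). In *Slc17a6*+ cells *Chrm1* was high in mouse 7 again (22.3 CPM), and in *Slc17a6*- cells in mouse 1 (5.57 CPM). *Adra1b* was high in the *Th*-poor cells of mouse 4 (7.74 CPM), *Htr2c* in the *Aldh1a7*+ cells of mouse 7 (34.3 CPM), and *Htr7* in the *Slc17a6*- cells of mouse 2 (8.97 CPM).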

How the results depend on the processing

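The number of receptors called between *Slc17a6*+ and *Slc17a6*- cells went from 1 to 0 with cells from 100000 reads, with thinned cells, with the gate at 50 reads, and with the mouse as a block, was 0–1 with 1 mouse left out, and was 3 in DESeq2. Between *Th*-poor and *Th*-rich cells it went from 0 to 1 with DESeq2 size factors in edgeR or a gate at 2000 CPM and to 4 in DESeq2, and it was 1 in DESeq2 between the sexes and 2 each for *Aldh1a7* and *Neurod6*. The mouse block changed no other call. Under each of its 18 alternatives *Htr2c* stayed higher in *Slc17a6*+ cells (3.32–5.46 on the log2 scale; adjusted p 2.75e-09 to 0.356), and 8 of them passed. Leaving out cells above 1000 CPM of summed oligodendrocyte markers, an alternative chosen after seeing the data, changed no count of calls; between *Th*-poor and *Th*-rich cells it removed no cell. *Htr5a* turned to 0.46 with the gate at 2000 CPM of *Th*. Receptors past the filter numbered 24 at 1 read and 6 at 50 reads, and receptors per cell 6 and 1; the median was 3 with cells from 700000 reads and 2–3 with 1 mouse left out. The cause of these changes was not tested. After thinning to 500000 reads, 13 receptors passed the filter as before, though *Htr5a* was then positive in 33 cells, not 50, and *Adrb1* in 10, not 19. Over all genes, DESeq2 called 319 between the sexes and 708, 273, 231, and 88 for *Th*, *Aldh1a7*, *Neurod6*, and *Slc17a6*, against 5, 48, 14, 1, and 2 in edgeR.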
